A study of Mus musculus with 16 samples.

Results

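Open chromatin regions that were present in vehicle-treated macrophages, missing after LPS alone and present after LPS in T0-pretreated cells were examined. Overlapping ATAC-seq peaks of the Veh, T0, LPS and T0-LPS lists were merged where they shared at least 1 bp, which gave 37648 regions. A region was kept with T0-LPS when it held a Veh peak and a T0-LPS peak and no LPS peak, whether or not it held a T0 peak. There were 710 such regions, of which 387 had no T0 peak and 323 had one. Closed and open mean absent from and present in a list here. The regions were chosen by their presence in the Veh, LPS and T0-LPS lists, so that presence and the scores in these lists are given as a description. Of the 35222 regions with a Veh peak, 13% had no LPS peak. Of the 4593 regions with a Veh peak and no LPS peak, 15.5% held a T0-LPS peak, and of the 29025 regions with Veh and T0-LPS peaks, 2.45% had no LPS peak.

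C57BL/6J mice gave the bone marrow-derived macrophages, which were differentiated in L-cell conditioned medium and deprived of serum before treatment on day 8. The Veh group received DMSO for 3 h and the T0 group 500 nM T0901317, a synthetic LXR agonist, for 3 h. The LPS group received DMSO and the T0-LPS group 500 nM T0901317 for 3 h, after which 10 ng/mL LPS was added to both for 2 h. The LPS and T0-LPS groups were therefore 2 h longer in culture than Veh and T0, and the effect of LPS and of this time cannot be told apart. There were 16 libraries of 50000 cells, 4 per group, and the authors called peaks on the 4 libraries of a group together. Each group thus gave 1 list without replicates, no test between groups was possible, and intervals below are Wilson 95% intervals that cover counting error only. The lists held 29839 to 35551 peaks, and the reads behind them are unknown. Of 6 macrophage marker genes, 5 (Spi1, Adgre1, Cd68, Itgam and Fcgr1) had a peak within 1 kb of a transcription start site (TSS) in every list. Csf1r had one in the LPS and T0-LPS lists only, and all 8 markers of T cells, B cells, neutrophils and hepatocytes had none. The lists had been filtered for macrophage enhancers, which limits this check. In bulk cells, fewer cells with an open region and a less open region in each cell cannot be told apart.

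Tn5 transposase cuts DNA where nucleosomes are displaced, so that ATAC-seq peaks mark promoters and enhancers bound by transcription factors. In macrophages the lineage factors PU.1, C/EBP and AP-1 keep most enhancers open. LPS acts through TLR4 and brings NF-kB, AP-1 and interferon regulatory factors to chromatin within hours. LXR binds oxysterols and sits as a heterodimer with RXR on DR4 elements of cholesterol efflux genes such as Abcg1, and its agonists also restrain part of the inflammatory response.

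To show what such regions look like in sequence, the central 200 bp of 8 of them are printed. Gm11084, Cmah, Stim2 and Irak2 name regions without a T0 peak, and Vcam1, Tnf, Tgfbr1 and Abcg1 name regions with one, each by its nearest TSS. All 8 lay where the LPS peak numbers left no place for a further called peak, as explained with the peak numbers. Letters are from the plus strand of GRCm38 as given by RefSeq. Capitals mark matches on either strand to the consensus motifs of AP-1 (TGANTCA), C/EBP (TTGCNNAA), PU.1 (GAGGAAGT), ETS (CCGGAAGT), MAF (TGCTGAC), the nuclear receptor core motif (AGGTCA), MEF2 (CTAAAAATA with up to 1 mismatch) and DR4 (up to 2 mismatches). A match is a description of the letters and not a binding site.
Gm11084, chr2:73040120-73040319: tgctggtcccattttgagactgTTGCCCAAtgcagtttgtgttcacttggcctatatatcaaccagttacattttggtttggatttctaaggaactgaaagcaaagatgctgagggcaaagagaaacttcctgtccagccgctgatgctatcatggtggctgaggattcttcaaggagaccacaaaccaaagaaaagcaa
Cmah, chr13:24402525-24402724: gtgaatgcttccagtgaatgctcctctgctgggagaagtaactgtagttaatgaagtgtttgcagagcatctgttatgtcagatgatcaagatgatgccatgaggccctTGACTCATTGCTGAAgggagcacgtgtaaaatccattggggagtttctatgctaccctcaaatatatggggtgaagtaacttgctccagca
Stim2, chr5:54024718-54024917: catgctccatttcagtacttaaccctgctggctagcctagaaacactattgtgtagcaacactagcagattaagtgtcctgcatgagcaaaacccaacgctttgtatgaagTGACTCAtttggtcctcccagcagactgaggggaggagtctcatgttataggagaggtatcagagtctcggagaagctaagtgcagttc
Irak2, chr6:113655107-113655306: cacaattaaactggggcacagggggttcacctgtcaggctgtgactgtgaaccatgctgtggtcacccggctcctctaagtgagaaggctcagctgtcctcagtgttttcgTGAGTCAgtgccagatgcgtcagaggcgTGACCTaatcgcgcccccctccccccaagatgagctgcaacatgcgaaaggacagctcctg
Vcam1, chr3:116186526-116186725: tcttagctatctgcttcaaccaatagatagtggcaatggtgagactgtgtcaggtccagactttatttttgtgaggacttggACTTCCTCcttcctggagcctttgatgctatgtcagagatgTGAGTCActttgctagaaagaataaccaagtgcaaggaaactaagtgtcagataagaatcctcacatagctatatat
Tnf, chr17:35200540-35200739: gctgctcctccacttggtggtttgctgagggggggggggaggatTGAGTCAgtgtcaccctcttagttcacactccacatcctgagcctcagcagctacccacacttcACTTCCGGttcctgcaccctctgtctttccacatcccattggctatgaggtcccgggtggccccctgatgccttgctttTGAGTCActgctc
Tgfbr1, chr4:47347145-47347344: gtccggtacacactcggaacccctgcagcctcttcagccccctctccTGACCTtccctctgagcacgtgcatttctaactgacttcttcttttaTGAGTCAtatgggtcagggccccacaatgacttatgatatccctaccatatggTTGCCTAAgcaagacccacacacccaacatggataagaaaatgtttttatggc
Abcg1, chr17:31058740-31058939: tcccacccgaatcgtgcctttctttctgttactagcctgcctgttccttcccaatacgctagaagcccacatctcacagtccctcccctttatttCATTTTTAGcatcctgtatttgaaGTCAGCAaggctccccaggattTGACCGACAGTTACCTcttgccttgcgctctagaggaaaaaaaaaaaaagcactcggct
The Tnf window held a pair of AP-1 matches and an ETS match. In the Cmah window an AP-1 and a C/EBP match stood next to each other. The Abcg1 window was the only one of the 8 with a DR4 match.

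The kept regions were weak in every list that held them. Each peak carried the authors' peak caller score, which was turned into a percentile within its own list because it grows with read depth. The median Veh score of the 710 regions was 161, at percentile 18.03, with 76.8% of the regions among the lowest 3 deciles of the Veh list. Their median T0-LPS score was 103, at percentile 8.77, and 55.4% were in the lowest decile of the T0-LPS list. Regions with Veh, LPS and T0-LPS peaks, called open in both here, were at median percentile 59.7 in Veh and 53.9 in T0-LPS. Regions with a Veh peak and neither an LPS nor a T0-LPS peak, called closed in both, were at 11.6 in Veh.

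Medians differed between the 2 subsets. Regions without a T0 peak had a median Veh score of 135 (range 36 to 1296, percentile 12.6) and a median T0-LPS score of 99 (range 37 to 1123, percentile 7.63). Regions with a T0 peak had a median Veh score of 205 (range 58 to 1411, percentile 25.9), a T0 score of 133 (range 42 to 965, percentile 15.1) and a T0-LPS score of 107 (range 43 to 1084, percentile 9.86). The percentile ranges of the subsets overlapped throughout. In the subset with a T0 peak, the T0 percentile was below the Veh percentile at 252 regions (78.0%) and above it at 71, against 76.7% below among regions open in both with a T0 peak. The T0-LPS percentile exceeded the Veh percentile at 126 of 387 regions without a T0 peak (32.6%) and at 45 of 323 regions with one (13.9%). Among regions open in both the shares were 49.9% without and 33.3% with a T0 peak, higher in each case and in the same order.

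**Figure D1:**
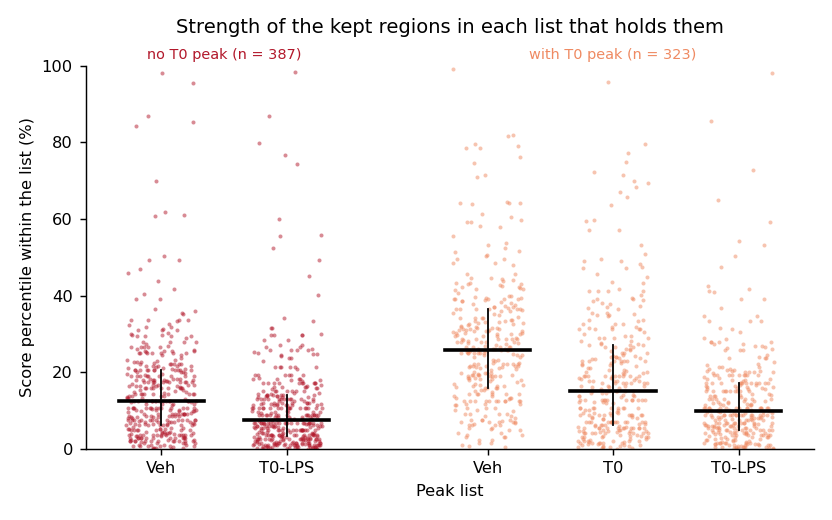
Score percentile of each kept region in the lists that hold it, for the 387 regions without and the 323 with a T0 peak. Points are regions, thick bars medians and thin bars quartiles, and the medians step down from 25.9 in Veh to 15.1 in T0 and 9.86 in T0-LPS where a T0 peak was present.

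Just outside the rule stood the 5 regions with Veh and T0-LPS peaks whose single LPS peak had the lowest scores, nearest to Hmgn2, Prex1, Mkrn2, Myocos and Tal1. Their LPS scores were 41, 42, 45, 48 and 48, beside Veh scores of 86, 178, 71, 137 and 143 and T0-LPS scores of 87, 77, 57, 67 and 62. These values lay within the range of the kept regions. Just inside the rule stood the 5 kept regions closest to an LPS peak, which was 63 bp away near Alkbh5, 76 bp near Mettl9, 87 bp near Ccdc9, 88 bp near Zfp639 and 91 bp near Vcl, all without a T0 peak. Of all kept regions 53 (7.46%) had an LPS peak within 200 bp, and the median gap was 4120 bp (range 63 to 3116780 bp).

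The authors had removed peaks outside macrophage enhancers, and the numbers in the peak names were taken to count the peaks as called. A kept region was said to have room when a number was missing between the LPS peaks on its flanks, since a removed LPS peak could then lie there. Room was present at 317 of 709 kept regions with LPS peaks on both flanks (44.7%, interval 41.1 to 48.4%), with 43.4% in the subset without and 46.3% in the subset with a T0 peak. It was present at 40.4% of regions closed in both and 42.2% of all regions. Among the strongest kept regions it was more frequent, at 33 of 40 (82.5%, interval 68.1 to 91.3%) with a Veh score at or above the list median against 42.5% below it. The same split among regions closed in both gave 78 of 87 (89.7%) and 39.3%. These 33 regions cannot be told apart from regions whose LPS peak was removed, and 7 of the 40 had no room. No room was left at 392 kept regions, 219 without and 173 with a T0 peak, and named regions below are from these unless stated.

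Presence of a T0 peak was not used in the choice. A T0 peak was missing at 54.5% of the kept regions (interval 50.8 to 58.1%), against 7.8% of all regions with Veh and T0-LPS peaks and 74.9% of regions closed in both. Absence from the T0 list and absence from the LPS list were both counted against the same Veh list, so these shares are not independent of it. With all lists shortened to equal length, the share without a T0 peak was 24.3% of 908 kept regions. The T0 list is the shortest and stayed whole in this setting, while the weakest peaks of the other lists were left out. The 7.8% and 74.9% are from the full lists, so that the 24.3% cannot be read against them. Since weak peaks were missing more often, the shares were also taken within deciles of the Veh score. In the lowest decile a T0 peak was missing at 156 of 199 kept regions (78.4%, interval 72.2 to 83.5%), against 65.1% (61.9 to 68.1%) of regions open in both and 89.5% (87.9 to 90.8%) of regions closed in both. In the next decile the values were 62.6%, 40.9% and 76.0%, and in the following one 47.7%, 18.9% and 52.9%. The kept regions lay between the other groups in each of these deciles, and their interval met that of the regions closed in both in the highest of the 3 (39.9 to 55.6% against 48.8 to 57.0%). From the seventh decile upwards there were at most 11 kept regions in a decile, too few to compare. Among the regions without a T0 peak, room in neither the T0 nor the LPS numbers was found at 203 of 387 (52.5%).

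**Figure D2:**
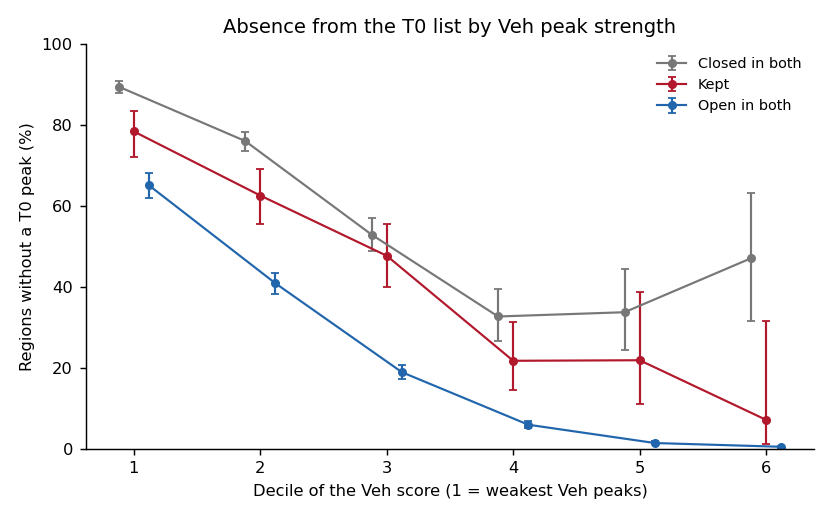
Share of regions without a T0 peak by decile of the Veh score, for kept regions, regions closed in both and regions open in both. Bars are Wilson 95% intervals, and in the lowest decile the kept regions sat at 78.4%, between 65.1% and 89.5%.

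The strongest kept regions without a T0 peak and without room lay mostly in introns. The one 53504 bp before the TSS of Gm11084 (chr2:73040094-73040346) had a Veh score of 213 and a T0-LPS score of 172. Cmah, which encodes the hydroxylase that makes N-glycolylneuraminic acid, held a pair of intronic regions, with a Veh score of 289 and a T0-LPS score of 126 at chr13:24338310-24338580 and with 252 and 110 at chr13:24402488-24402762. Both had a lower percentile in T0-LPS than in Veh. In an intron of Lcp1, the gene of the actin-bundling protein L-plastin, the region at chr14:75176605-75176944 had a Veh score of 203 and a T0-LPS score of 165. A region 265 bp before the TSS of Psmd1 (chr1:86064243-86064465), a proteasome subunit, had a Veh score of 186 and a T0-LPS score of 163, and an LPS peak stood 117 bp away. An intronic region of Stim2 (chr5:54024700-54024935), a calcium sensor of the endoplasmic reticulum, had a Veh score of 173 and a T0-LPS score of 169. Its percentile was higher in T0-LPS (26.5) than in Veh (20.1). The same held for an intronic region of Rest (chr5:77267102-77267339), a repressor of neuronal genes, with a Veh score of 180 and a T0-LPS score of 162. Within Osbpl1a, the gene of an oxysterol-binding protein relative, an intronic region had a Veh score of 234 and a T0-LPS score of 133, and the T0 numbers left room there.

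The strongest kept regions with a T0 peak and without room were stronger in Veh. By the mean of the Veh and T0-LPS percentiles, the highest was in an intron of Npc1, whose product exports cholesterol from lysosomes, and had scores of 478 in Veh, 169 in T0 and 171 in T0-LPS, and an LPS peak stood 116 bp away. An intronic region of Chst11 (chr10:83005020-83005337), a chondroitin sulfotransferase, had scores of 444, 250 and 145 in the same order, with an LPS peak 220 bp away. Sulf2, which trims sulfate from heparan sulfate, held an intronic region (chr2:166140451-166140802) that had scores of 469, 189 and 128, and no LPS peak within 13057 bp. In all 3 of these the percentile was lowest in T0 or T0-LPS and highest in Veh. A region 9450 bp before the TSS of Ddx47, an RNA helicase, had scores of 376, 133 and 149. A region 14926 bp before the TSS of Kif13b, a kinesin, had scores of 300, 250 and 178. The region 56938 bp before the TSS of Vcam1 (chr3:116186506-116186746), an adhesion molecule for leukocytes, had scores of 311, 215 and 168. At Ddx47 the T0-LPS percentile (21.4) was above that in T0 (15.1), and at Kif13b and Vcam1 it was below. The remaining regions of this rank lay in introns of Arid1b (377, 157 and 135) and Ppil2 (318, 172 and 158).

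Kept regions with room reached far higher scores. An intronic region of Enkur (chr2:21182770-21183282) had a Veh score of 1296 and a T0-LPS score of 1123, at percentiles 98.1 and 98.4, and no peak in T0 or LPS. An intronic region of Focad had 1124 and 676, and a region near Tnfsf8, the CD30 ligand gene, had 794 and 565. At these 3, numbers were missing in both the LPS and the T0 list. With a T0 peak, the highest scores (1411 in Veh, 965 in T0 and 1084 in T0-LPS) belonged to a region on a contig assigned to chromosome X without a position, where there was no annotation and room could not be assessed. Among regions with room, the highest by the mean of the Veh and T0-LPS percentiles were near Zfhx2 (711 in Veh, 579 in T0 and 652 in T0-LPS), near Tbl1x, which encodes a subunit of the NCoR/SMRT corepressor complex (703, 520 and 480), and in an intron of Sestd1 (745, 548 and 405). At each of them the LPS numbers left room, with 1, 2 and 3 numbers missing.

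To see which pathways the kept regions lay near, 12 gene lists were compared by the share of genes with a kept region within 100 kb of a TSS. Of all 21827 protein-coding genes, 11.0% had one, and 38.0% had a region closed in both. Of the 19 LXR targets, 3 (Abcg1, Lpcat3 and Mertk) had a kept region (15.8%, interval 5.52 to 37.6%). Of 30 inflammatory genes, 5 had one (Tnf, Il1a, Icam1, Csf3 and Il10, 16.7%, interval 7.34 to 33.6%). The TGF-beta pathway had the highest share, 5 of 18 genes (Tgfbr1, Tgfbr2, Smad7, Ski and Tgif1, 27.8%, interval 12.5 to 50.9%), and TLR4 signalling the lowest, 1 of 18 (Irak2, 5.56%). The other lists lay between 11.8% and 22.2%, with 3 of 20 housekeeping genes (15.0%). Every interval but that of the TGF-beta pathway included the 11.0% of all genes. These lists were dense in regions of other kinds, with a region closed in both near 43.8% of the sterol genes, 55.6% of the TGF-beta genes and 73.7% of the phagocytic receptor genes. Within 10 kb only 1 of 18 TGF-beta genes had a kept region (5.56%, interval 0.988 to 25.8%), against 2.03% of all genes. Of 30 inflammatory genes 3 had one within 10 kb (10.0%, 3.46 to 25.6%), and of 20 housekeeping genes 2 (10.0%, 2.79 to 30.1%). Only these 2 intervals lay above the 2.03%. The 12 lists were compared without correction.

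Few regions lay near each list, and the split by subset is given for 3 of the 12, picked after the counts were seen. All 5 kept regions near the inflammatory genes and all 4 near genes of leukocyte adhesion and migration (Itgal, Icam1, Vcam1 and Vav1) had a T0 peak. Icam1 was on both lists, so its region was counted in the 5 and in the 4. All 6 near the phagocytic and homeostatic receptors (Mertk, Stab1, Tyrobp and C5ar1) had none, as had 54.5% of all kept regions. Counted over genes and within 100 kb, 5 of 30 inflammatory genes had a kept region with a T0 peak. Of these 30 genes 0 had one without, which allows a share of up to 11.4%. The interval of the first share (7.34 to 33.6%) reaches below this limit. Of all protein-coding genes 4.93% had a kept region with and 6.60% one without a T0 peak, so that 0 of 30 is within counting error of the background. The interval of the inflammatory share with a T0 peak lay above the 4.93%, as did that of the adhesion genes (20.0%, 8.07 to 41.6%). That of the phagocytic receptor genes without a T0 peak (21.1%, 8.51 to 43.3%) lay above the 6.60%. As the 3 lists were picked after the counts were seen, these shares are a description only.

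At 20 kept regions the nearest TSS within 100 kb or the host gene was on a list, 5 without and 15 with a T0 peak. In the intron of Tnf, the gene of the LPS-induced cytokine TNF, the region at chr17:35200412-35200867 had scores of 504 in Veh, 405 in T0 and 55 in T0-LPS. Its percentile was 63.8 in Veh and 63.7 in T0 and 0.434 in T0-LPS, so that its T0-LPS peak was among the weakest of that list. An LPS peak stood 830 bp away. A region 8137 bp after the TSS of Csf3, the gene of the neutrophil growth factor G-CSF, had scores of 167, 155 and 126 and lay in an intron of Med24. A region 6177 bp after the TSS of Il10, an anti-inflammatory cytokine, had scores of 182, 70 and 74. The TSS of Vav1, a signalling protein of leukocytes, lay in a kept region with scores of 221, 114 and 102. Of these, the T0 percentile stayed near the Veh percentile at Tnf and Csf3 and was lower at Il10 and Vav1.

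The LXR target Abcg1, a cholesterol efflux transporter, had a pair of kept regions in introns whose percentiles ran in opposite order. The one 1113 bp after the TSS (chr17:31058694-31058986), which held the DR4 match, had scores of 80 in Veh, 159 in T0 and 110 in T0-LPS, at percentiles 2.22, 21.8 and 10.8. The one 3141 bp after the TSS (chr17:31060645-31061091) had 170, 78 and 92, at percentiles 19.7, 2.32 and 5.86. An intronic region of Mertk, a receptor for apoptotic cells, had a Veh score of 150 and a T0-LPS score of 81 and no T0 peak.

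In the TGF-beta pathway, 5 regions were nearest to or within a gene of the list. The intronic region of Tgfbr2, the type II receptor, had scores of 367 in Veh, 133 in T0 and 121 in T0-LPS. The region 5977 bp before the TSS of Tgfbr1, the type I receptor, had scores of 289, 110 and 110. A pair of regions near Tgif1, a corepressor of the pathway, had scores of 394, 240 and 120 and of 307, 151 and 93, the first of them with room. The region nearest to Smad7, an inhibitor of the pathway, lay in an intron of Ctif and had 323 in Veh and 166 in T0-LPS, with room in both the LPS and the T0 numbers. At all 5 the T0-LPS percentile was below the Veh percentile, as at most kept regions, of which 24.1% had it above.

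Among the remaining listed genes, an intronic region of Irak2, a kinase below TLR4, had a Veh score of 135 and a T0-LPS score of 133, and a region near Id2, an inhibitor of helix-loop-helix factors, had 106 and 128. Both had a higher percentile in T0-LPS than in Veh and no T0 peak. A region 54255 bp after the TSS of Irf8, a factor of macrophage development, had scores of 149, 118 and 101, with room. Housekeeping genes had values of the same size, with 183, 179 and 130 at Ppia, 228, 117 and 113 near Eef1a1, and 127 in Veh and 93 in T0-LPS in an intron of Gapdh without a T0 peak.

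**Figure D3:**
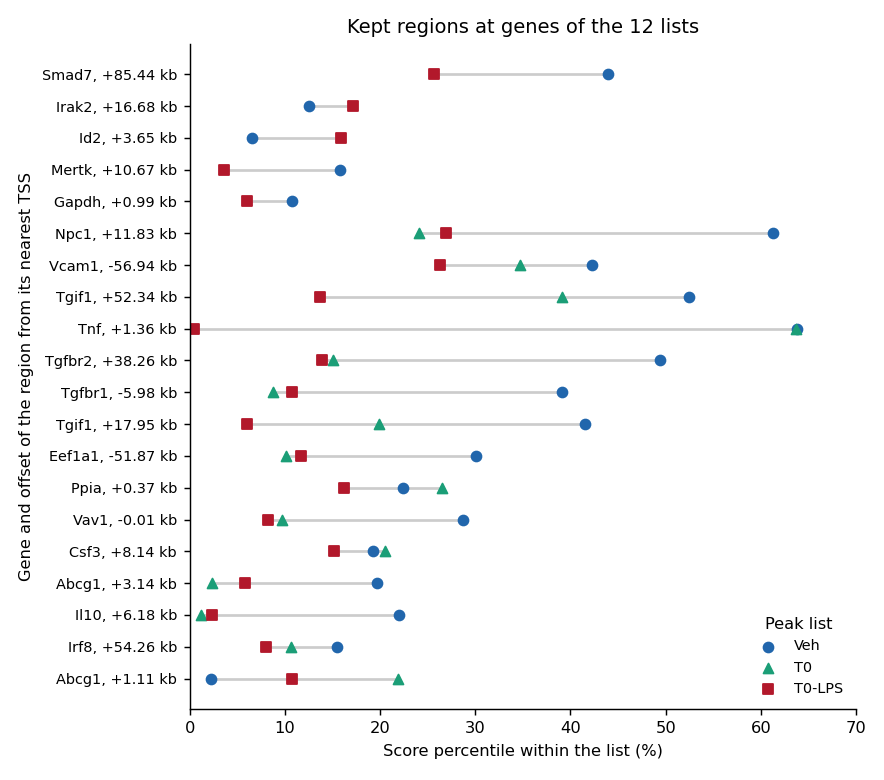
Score percentile in the Veh, T0 and T0-LPS lists of the 20 kept regions at genes of the 12 lists, with the offset of the region from its nearest TSS. The Tnf region falls from 63.8 in Veh to 0.434 in T0-LPS, and the upper 5 regions have no T0 peak.

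The kept regions had 661 nearest genes, of which 617 were nearest to 1 kept region, 42 to 2 and only Kcnj10 and Fgd4 to 3. No such count was made for an equal number of other regions, so these numbers are a description only. The 3 intronic regions of Kcnj10, a potassium channel gene, had Veh scores of 169, 78 and 247 and T0-LPS scores of 100, 93 and 133, and only the last had a T0 peak (182). The 3 intronic regions of Fgd4, an exchange factor for Cdc42, had Veh scores of 113, 78 and 275 and T0-LPS scores of 94, 96 and 126, and again only the last had a T0 peak (286).

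The kept regions were compared with the others by their position. Their midpoint was within 1 kb of a TSS at 163 of 710 regions (23.0%, interval 20.0 to 26.2%), against 38.4% of regions open in both, 17.3% of regions closed in both and 33.9% of all regions. Without a T0 peak the share was 26.9% (22.7 to 31.5%) and with one 18.3% (14.4 to 22.8%), with intervals that just overlapped. Without a T0 peak, regions open in both had 26.9% and regions closed in both 19.2%. With one they had 39.2% and 11.6%. Only the kept regions with a T0 peak thus lay between the matching sets, and those without one were level with regions open in both. Among kept regions with a Veh percentile up to 30 the shares were 28.9% without and 26.2% with a T0 peak. The comparison sets, not split by T0 peak, had 34.1% for open in both and 18.5% for closed in both. At this strength the kept subsets were close, and their intervals (24.4 to 33.8% and 20.5 to 32.7%) lay above that of the regions closed in both (17.2 to 19.8%). Of the kept regions 51.5% were intronic, 38.2% intergenic, 7.32% in untranslated regions and 2.54% in other exons. Introns held 39.8% of the regions open in both and 52.9% of those closed in both.

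**Figure D4:**
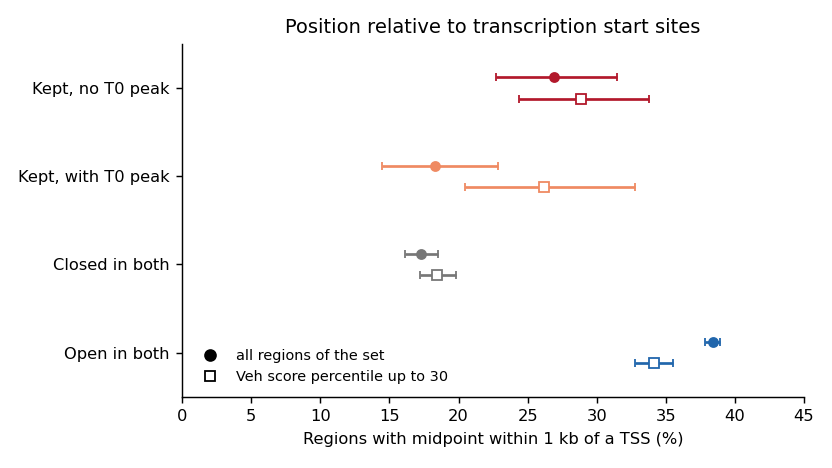
Share of regions with the midpoint within 1 kb of a TSS, with Wilson 95% intervals, for all regions of each set (circles) and for those with a Veh score percentile up to 30 (squares). Kept regions lie between regions closed in both (17.3%) and regions open in both (38.4%), which are not split by T0 peak here. Regions open in both without a T0 peak had 26.9%, as had kept regions without one.

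The central 200 bp of 707 kept regions on the main chromosomes were searched for 16 consensus motifs on both strands, and 476 held at least 1. AP-1 was found in 19.5% of the kept regions (interval 16.8 to 22.6%), with 19.9% without and 19.0% with a T0 peak, against 16.6% of all regions of this length. C/EBP was found in 11.7%, against 10.7% of all regions, and PU.1 in 7.78%, against 8.55%. For these lineage factors the intervals of the kept regions included the share of all regions, except that the lower bound for AP-1 lay just above it. Under a reciprocal overlap of 50% the AP-1 share was 14.9%. The share of all regions was not taken under this overlap, so the 14.9% cannot be read against the 16.6%.

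NF-kB matches were few. They were present in 12 kept regions (1.70%, interval 0.974 to 2.94%), against 3.99% (3.76 to 4.22%) of regions open in both, 1.06% of regions closed in both and 4.30% of all regions. With a Veh percentile up to 30 the share was 1.29% (0.626 to 2.64%) against 6.08% (5.43 to 6.81%) of regions open in both. These intervals did not overlap. By subset, 2.33% of regions without a T0 peak (1.23 to 4.37%) and 0.935% of regions with one (0.318 to 2.71%) held a match. Regions open in both had 7.74% (6.61 to 9.04%) without a T0 peak and 3.72% (3.50 to 3.96%) with one. Each kept subset thus lay below its matching set. Against all regions open in both, only the interval of the kept regions with a T0 peak lay below. With a Veh percentile up to 30, regions without a T0 peak held a match in 2.01% (0.975 to 4.08%), and this interval too lay below that of the regions open in both. With presence defined by a reciprocal overlap of 50% there were 1191 kept regions, and 3.13% of them held an NF-kB match. The regions open in both had to hold an LPS peak and the kept regions had to lack one, so this contrast follows presence in the LPS list.

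Among the 16 motifs, compared without correction, only interferon regulatory factor (IRF) matches had intervals that did not overlap between the subsets. They were present in 23 of 386 regions without a T0 peak (5.96%, interval 4.00 to 8.78%) and in 4 of 321 regions with one (1.25%, 0.486 to 3.16%), against 3.79% of all regions. Other windows and overlap rules were not run for this motif. Among regions with a Veh percentile up to 30 the shares were 6.59% (4.43 to 9.69%) and 1.55% (0.527 to 4.45%), and these intervals met. A difference of the same direction was present among regions open in both, with 7.63% without and 3.25% with a T0 peak, and among regions closed in both the shares were 3.03% and 2.47%. Of the 15 interferon-stimulated genes on the list, 3 had a kept region within 100 kb and 0 within 10 kb, and 0 were the nearest gene of one.

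The nuclear receptor core motif was found in 9.59% of regions without a T0 peak (interval 7.03 to 12.9%) and in 16.2% of regions with one (12.6 to 20.6%), against 11.9% of all regions. DR4, the element bound by LXR and RXR, was found in 6 (1.55%) and 11 (3.43%), against 1.94%. Both shares were higher with a T0 peak, but the intervals of the subsets overlapped, and the same held for RUNX (4.40% and 8.41%, all regions 6.94%) and for MAF (5.18% and 8.10%, all regions 5.27%). Regions closed in both had the core motif in 12.7% of those without a T0 peak and 13.6% of all. For DR4 these shares were 2.10% and 2.19%, and for RUNX 8.66% and 8.96%. The direction was thus the same among regions closed in both. Regions open in both had the core motif in 11.2% without and 11.5% with a T0 peak. Besides Abcg1, the kept regions with a DR4 match included a region 337 bp before the TSS of Cyp27a1, the sterol hydroxylase that makes an LXR ligand, with scores of 110 in Veh, 75 in T0 and 120 in T0-LPS. It was singled out after its values were seen. The GC-rich KLF/SP motif (CCGCCC) was found in 18.4% of regions without and 12.5% of regions with a T0 peak, against 27.4% of regions open in both and 11.9% of regions closed in both. These shares followed the order of the shares within 1 kb of a TSS.

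**Figure D5:**
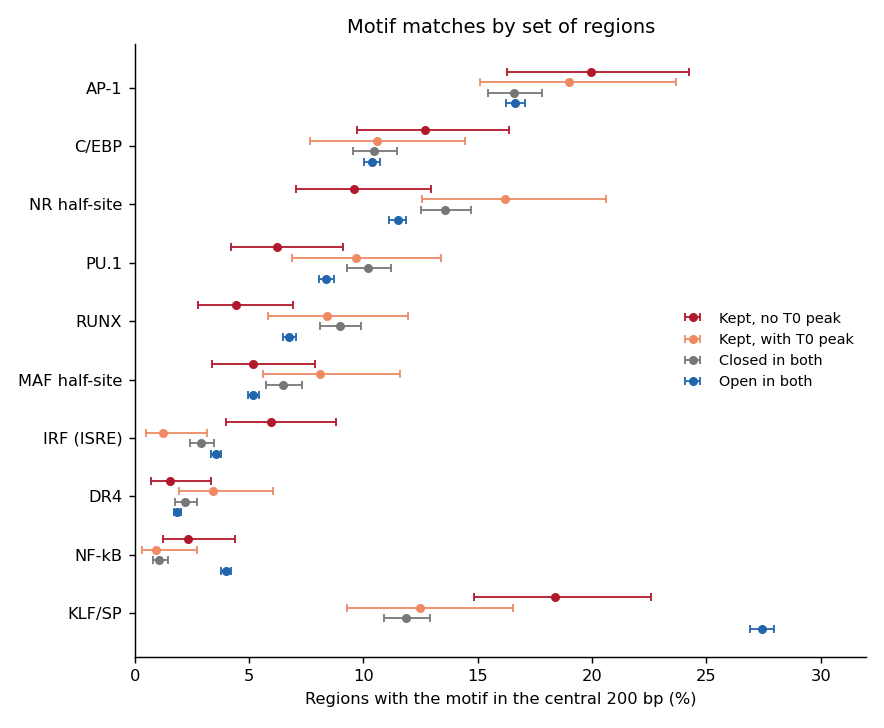
Share of regions with a motif match in the central 200 bp, with Wilson 95% intervals, for kept regions without and with a T0 peak and for regions closed and open in both. NR stands for nuclear receptor (the core motif AGGTCA), and the IRF intervals of the kept subsets (5.96% and 1.25%) do not overlap. The NF-kB share of all regions open in both (3.99%) lies inside the interval of kept regions without a T0 peak. Regions open in both are not split by T0 peak here, and those without one had an NF-kB share of 7.74%, above that interval.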

How the data were processed

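The data were 16 ATAC-seq libraries in 4 groups of 4. The authors trimmed adaptors with cutadapt, aligned reads with Bowtie2 (mm10 in the submitters' processing notes), removed PCR duplicates with samtools, called peaks with MACS2 on the 4 libraries of a group together at a q threshold of 0.001, and kept peaks at enhancers marked by H3K27ac or H3K4me2 in other macrophage data. The deposited lists gave each peak a position, a numbered name and the authors' peak caller score, which grows with depth, so that lists were compared by percentiles within each list and, in 1 alternative, with a common minimum score. Depth was unknown. GRCm38 chromosome lengths contained all 129556 peaks of the main chromosomes. Coordinates count from 1.

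Peaks were merged with Python 3.11.15, numpy 2.4.6 and pandas 2.3.3, and figures drawn with matplotlib 3.10.9. TSSs, exons and introns came from protein-coding genes of the GENCODE vM21 basic annotation, and 226 of 227 listed genes were found. Merging, room and motif search were tested on simulated data.

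Members, gene lists and motifs were chosen with earlier results of these data known. Regions were named by rule. In each subset these were the 8 with the highest mean of Veh and T0-LPS percentiles without room and the 3 highest with room. Further named were members at listed genes, genes nearest to 3 members, and regions at the edge of the rule. Alternatives changed the overlap, the score minimum, the list length, the windows and the treatment of room.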

Additional observations from a re-analysis of the deposited data

How the results depend on the processing

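The count of kept regions depended on how presence was defined. It was 1191 (609 without and 582 with a T0 peak) when the Veh peak and a peak of another list had to overlap each other by 50%, with 33.8% within 1 kb of a TSS, 14.9% with AP-1 and 3.13% with NF-kB. With all lists shortened to the length of the shortest there were 221 without and 687 with a T0 peak (24.3% without). This reversed the order of the subsets, since the T0 list is the shortest and was left whole while the other lists lost their weakest peaks. Restricted to the stronger Veh and T0-LPS peaks, from the median score of each list upwards, 17 remained (9 without and 8 with a T0 peak, 5.88% within 1 kb of a TSS). Without room in the LPS numbers there were 392 (219 and 173). With a minimum score of 100, the share without a T0 peak was 49.5% of 642, so that the subsets were near equal. The share near a TSS was 15.9% within 500 bp and 38.3% within 5 kb. In a window of 100 bp, matches fell to 13.4% for AP-1, 5.80% for PU.1, 6.51% for C/EBP, 0.849% for NF-kB, 6.36% for the nuclear receptor core motif and 0.990% for DR4. Where no cause is stated, the cause was not tested. Counting an LPS peak within 200 bp as present left 657. Gene list counts fell with a window of 10 kb, to 1 LXR target, 3 inflammatory genes, 1 TGF-beta pathway gene, 1 adhesion gene and 0 phagocytic receptor genes. No paired analysis was possible because each list pools the 4 libraries of a group, and for the same reason no library could be left out. A replicate check and the depth per library would be needed to tell a weak peak from one at the threshold.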

Other observations

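Kept regions were spread over the genome. On the autosomes they made up 1.89 to 3.04% of the regions with Veh and T0-LPS peaks, and on chromosome X 10 of 651 (1.54%, interval 0.836 to 2.80%), against 2.45% in all. Another kept region lay within 50 kb of 11.8% of them (interval 9.66 to 14.4%), against 8.77% (8.45 to 9.10%) of regions open in both and 10.5% of regions closed in both. A region with peaks in all 4 lists lay within 50 kb of 89.2%, against 88.8% of regions open in both. A region opened by LPS, with an LPS peak and no Veh peak, lay within 50 kb of 24.6% of the kept regions (interval 21.6 to 27.9%), against 23.0% of regions open in both and 22.5% of regions closed in both.

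The mean GC content of the central 200 bp was 53.9% (SD 10.9 over 386 regions) without and 52.3% (SD 8.43 over 321 regions) with a T0 peak, against 55.3% in regions open in both and 50.9% in regions closed in both. The median observed to expected CpG ratio was 0.356 without and 0.255 with a T0 peak, against 0.385 in regions open in both and 0.251 in regions closed in both. Without a T0 peak, regions open in both had 52.0% GC and a CpG ratio of 0.286, and regions closed in both 51.0% and 0.255. Kept regions without a T0 peak lay above both. With a T0 peak the values were 55.6% and 0.394 for open in both and 50.8% and 0.240 for closed in both. Kept regions with a T0 peak lay between these. Where a T0 peak was present, the T0 percentile was the highest of the 3 lists at 60 of 323 regions (18.6%). This share was not taken for other regions, so it cannot be called high or low. Looked up after their values were seen, the 60 included a region near Sgsm3 with scores of 135 in Veh, 206 in T0 and 103 in T0-LPS, where the LPS numbers left room, and one near Wdfy1 with 154, 199 and 92.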
